A study of Mus musculus with 18 samples.

Results

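The 46 genes described here carry out the 2 linked tasks of cell division, copying the DNA and separating the copies. They were chosen by name, and each matched 1 of the 54446 gene identifiers in the count files through the GENCODE mouse release M21 symbols. The list holds 30 genes of mitosis and 16 of DNA replication. RNA was measured by sequencing in 18 libraries of mouse embryoid bodies, which are clumps of embryonic stem cells that differentiate while floating. All came from C57BL/6 stem cells kept in LIF, CHIR99021 and PD0325901 and then, without feeder cells, in embryoid body medium for 7 days, in plates of ultra-low attachment. They fall into 6 groups of 3 libraries. The Mettl14 line gave a conditional knockout (CKO) with 5 µM GSK343, which inhibits the H3K27 methyltransferase EZH2, the CKO without inhibitor, and a control. The Mettl3 line gave a CKO with 5 µM GSK-J4, which inhibits the H3K27 demethylases KDM6A and KDM6B, the CKO without inhibitor, and a control. Per the treatment protocol, CKO cells without inhibitor received DMSO, and nothing is said there of the controls. METTL14 and METTL3 are partners in the enzyme that places N6-methyladenosine on mRNA. The sources used here give neither the Cre driver nor the deleted exons nor the number of clones. No label states that replicates were separate cultures, so the p-values rest on a spread between libraries that may be only technical.

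Dividing cells pass from G1 into S phase when cyclin E and its kinase free the E2F transcription factors, which switch on genes for the MCM helicase, the sliding clamp and nucleotide supply. Before that, CDC6 and CDT1 load the helicase on DNA. Mitosis genes come on later, in G2 and M, when repression by the DREAM complex at the cell-cycle homology region (CHR) of their promoters is lifted, so their transcripts are found mainly in cells that are about to divide. In embryoid bodies, stem cells leave rapid self-renewing division and enter lineages that divide at their own rates.

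Total counts per library ran from 721853 to 32540164, and the lowest were GSK343 replicate 3 with 721853 and Mettl14 CKO replicate 3 with 1303697. Levels below are in CPM, which scale each count to that total, and 3 counts, the floor used here for a gene with no count, equal 0.0922 to 4.16 CPM. Mettl14 had 12.1, 17.1 and 12.5 CPM with GSK343, 15.3, 22.9 and 17.6 CPM in the Mettl14 CKO and 17.1, 18.1 and 16.8 CPM in its control. Mettl3 had 8.54, 28.6 and 13.6 CPM with GSK-J4, 25.9, 6.9 and 18.1 CPM in the Mettl3 CKO and 20.3, 33.6 and 18.6 CPM in its control. Whole-gene counts of the targeted genes thus overlapped between libraries labelled CKO and control, and a whole-gene count does not show whether single exons were removed, so each group below is named as labelled. The 12 fibroblast markers summed to 687 to 1522 CPM in the GSK-J4 libraries and 8144 to 14929 CPM in the other libraries. The 10 pluripotency markers summed to 79.0 to 193 CPM with GSK-J4 and 19.2 to 85.7 CPM in the others. Blood and mesoderm markers summed to 37.7 to 57.7 CPM with GSK-J4 and 4.25 to 21.1 CPM in the others. In the same order, heart muscle markers summed to 11.8 to 67.4 and 0 to 13.0 CPM. Endoderm markers summed to 10.6 to 20.2 and 0 to 21.9 CPM. The 8 neural markers summed to 67.4 to 80 CPM with GSK-J4, 176 to 195 CPM in the Mettl3 CKO, 112 to 147 CPM in its control and at most 77.5 CPM in the Mettl14 line. The GSK-J4 libraries also had 0.678 to 0.957% of their counts in mitochondrial genes, against 3.06 to 4.87% in the other libraries.

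Promoters of the members are shown because CHR letters were more frequent among the mitosis genes than among the replication genes. RefSeq (GRCm38.p6) gave a promoter for 39 of the 46 members, from 250 bases before the start site to 50 after it, and where a gene had several the one closest to the M21 start was used. The CHR letters searched were TTTGAA and TTCGAA, the E2F letters TTTGGCGC, TTTCCCGC, TTTGCCGC and TTTCGCGC, and the CCAAT box CCAAT, each on both strands. CHR letters stood in 20 of 26 mitosis promoters (76.9%) and in 2 of 13 replication promoters (15.4%), against 19.4% of 27025 promoters of all genes. E2F letters stood in 1 of 26 mitosis promoters (3.85%) and 6 of 13 replication promoters (46.2%), against 2.32% of all. Those 6 were all of helicase and licensing genes. The promoters of Pcna, Rrm1, Rrm2, Tyms, Ccne1 and E2f1 had no E2F letters. CCAAT letters stood in 76.9% of mitosis and 61.5% of replication promoters, against 37.9% of all. A match describes the letters and is not a mapped binding site. Plk1 (chr7:122159185-122159484, plus strand) and Kif23 (chr9:61946750-61947049, minus strand) each hold a CCAAT match before the start site and a CHR match after it. The CCAAT match begins 14 bases before the start site in Plk1 and 7 in Kif23. The CHR match begins at base 31 after it in Plk1 and at base 3 in Kif23. Mcm7 (chr5:138171834-138172133, minus strand) carries CHR, E2F and CCAAT letters, its downstream E2F and CCAAT matches sharing a base, and its RefSeq start site lies 539 bases inside the M21 gene start. Rrm1 (chr7:102441445-102441744, plus strand) holds only CCAAT letters. Capitals mark these matches in the sequences, which run 5′ to 3′.
Plk1: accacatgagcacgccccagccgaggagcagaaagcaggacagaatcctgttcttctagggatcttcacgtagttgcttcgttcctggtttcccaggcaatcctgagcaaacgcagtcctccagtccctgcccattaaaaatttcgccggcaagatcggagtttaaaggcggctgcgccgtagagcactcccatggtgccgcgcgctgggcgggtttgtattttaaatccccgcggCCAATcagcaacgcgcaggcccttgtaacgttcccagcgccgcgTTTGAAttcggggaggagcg
Kif23: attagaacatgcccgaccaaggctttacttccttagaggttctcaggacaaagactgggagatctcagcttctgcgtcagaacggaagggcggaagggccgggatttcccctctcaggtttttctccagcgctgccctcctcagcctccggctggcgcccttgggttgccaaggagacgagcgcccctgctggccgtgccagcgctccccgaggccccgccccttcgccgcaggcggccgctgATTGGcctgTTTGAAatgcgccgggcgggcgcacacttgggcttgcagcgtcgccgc
Mcm7: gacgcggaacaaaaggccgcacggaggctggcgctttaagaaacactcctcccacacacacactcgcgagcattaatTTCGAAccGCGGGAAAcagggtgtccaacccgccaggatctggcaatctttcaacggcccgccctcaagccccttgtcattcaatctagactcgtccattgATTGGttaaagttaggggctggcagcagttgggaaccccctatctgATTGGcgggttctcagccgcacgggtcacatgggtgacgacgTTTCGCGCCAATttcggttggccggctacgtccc
Rrm1: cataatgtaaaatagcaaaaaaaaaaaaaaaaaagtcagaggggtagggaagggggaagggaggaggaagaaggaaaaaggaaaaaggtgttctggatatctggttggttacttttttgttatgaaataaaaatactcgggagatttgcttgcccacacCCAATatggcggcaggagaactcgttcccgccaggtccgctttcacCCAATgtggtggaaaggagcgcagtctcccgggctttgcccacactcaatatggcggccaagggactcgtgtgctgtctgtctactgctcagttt

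Replication genes were readily detected in these embryoid bodies and mitosis genes were near the limit of detection. Over the 18 libraries the median level of the 16 replication genes was 19.3 CPM (1.16 to 46), and 11 of them had a count in every library. The median of the 30 mitosis genes was 1.16 CPM (0 to 8.55), 28 of them lay under 5 CPM, and each had no count in at least 1 library. Per kilobase of merged exon, the scale on which genes can be compared, the medians were 3.34 CPM per kb for replication genes and 0.235 for mitosis genes, against 0.57 for the 21918 protein-coding genes of the annotation. As ranks among those genes, the medians were percentile 64.6 for replication and percentile 45.9 for mitosis. Within each library the replication genes summed to 2.08 to 7.21 times the CPM of the mitosis genes. In bulk RNA, fewer dividing cells and less RNA per cell cannot be told apart.

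**Figure D1:**
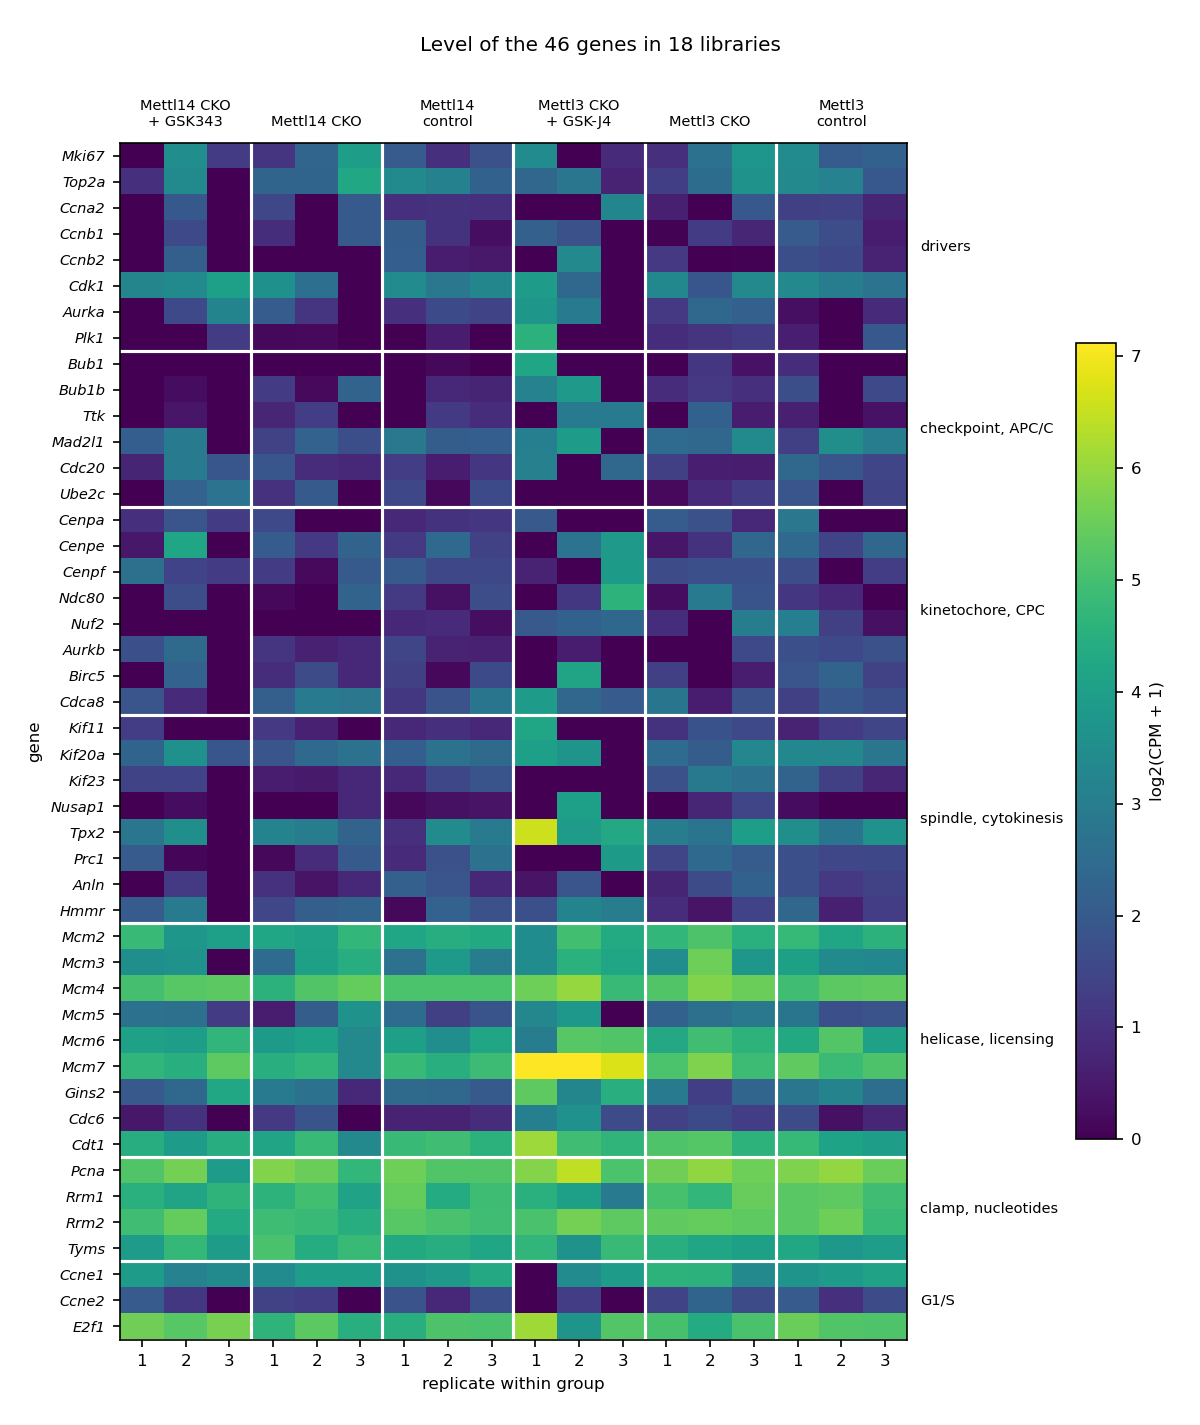
Level of each of the 46 genes (rows, grouped by role) in each of the 18 libraries (columns, 3 per group), as log2(CPM + 1) on the colour scale. The 16 replication genes in the lower rows are counted in most libraries, while the 30 mitosis genes above them have many libraries at 0 and, with GSK-J4, isolated high libraries that differ from gene to gene.

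Among the mitotic drivers, the proliferation marker Mki67, which coats mitotic chromosomes, had 0, 10.3 and 1.39 CPM with GSK343, 1.15, 4.01 and 14.6 CPM in the Mettl14 CKO and 3.14, 0.963 and 2.43 CPM in the Mettl14 control. In the Mettl3 line Mki67 had 9.72, 0 and 0.825 CPM with GSK-J4, 0.983, 5.36 and 12.3 CPM in the CKO and 9.85, 3.22 and 3.63 CPM in the control. The groups of each line overlapped in Mki67, and libraries of 1 group lay far apart. Top2a, the topoisomerase that untangles sister chromatids, had 0.965, 9.65 and 0 CPM with GSK343, 3.91, 3.87 and 18.4 CPM in the Mettl14 CKO and 9.53, 7.82 and 3.6 CPM in its control. It had 4.12, 5.91 and 0.618 CPM with GSK-J4, 1.48, 4.67 and 11.5 CPM in the Mettl3 CKO and 9.3, 8 and 2.89 CPM in its control. Here too the groups of each line overlapped. Cdk1, the kinase that drives entry into mitosis, was the most abundant of the 30 per kb, at a median of 1.73 CPM per kb. It had 8.45, 9.56 and 15.2 CPM with GSK343, 10.8, 5.02 and 0 CPM in the Mettl14 CKO and 9.89, 6.02 and 8.65 CPM in its control. It had 14.1, 4.34 and 0 CPM with GSK-J4, 8.94, 2.74 and 9.11 CPM in the Mettl3 CKO and 9.21, 7.02 and 5.51 CPM in its control. The 2 libraries with no Cdk1 count were replicate 3 of the Mettl14 CKO and replicate 3 of GSK-J4. Ccnb1, the cyclin that activates CDK1, stayed between 0 and 3.53 CPM in all 18 libraries, with 0, 1.95 and 0 CPM under GSK343, 0.921, 0 and 3.07 CPM in the Mettl14 CKO and 3.26, 1.08 and 0.194 CPM in its control. In the Mettl3 line Ccnb1 had 3.53, 2.41 and 0 CPM with GSK-J4, 0.0307, 1.37 and 0.69 CPM in the CKO and 3.1, 2.2 and 0.453 CPM in the control. Plk1, the kinase of centrosomes and kinetochores, had no count in 8 of 18 libraries and, outside 1 library, at most 2.86 CPM. In that library, GSK-J4 replicate 1, 78 Plk1 reads made 23.0 CPM, while replicates 2 and 3 of that group had none.

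Among the replication genes, Mcm2, a subunit of the MCM helicase, had 26.9, 12.7 and 15.2 CPM with GSK343, 17.7, 15.8 and 25.3 CPM in the Mettl14 CKO and 17.7, 20.6 and 19.2 CPM in its control. It had 10, 30.2 and 19.4 CPM with GSK-J4, 25.1, 34.2 and 22.1 CPM in the Mettl3 CKO and 26.1, 17.2 and 22.7 CPM in its control. Mcm2 groups overlapped in both lines. Pcna, the sliding clamp, was the most abundant member per kb at 19.2 CPM per kb, and had 35.2, 48.5 and 13.9 CPM with GSK343, 53.5, 45.1 and 25.3 CPM in the Mettl14 CKO and 46.1, 35.1 and 35.7 CPM in its control. It had 55.1, 85.2 and 33.6 CPM with GSK-J4, 46.5, 59.7 and 46 CPM in the Mettl3 CKO and 52.3, 61.5 and 45.3 CPM in its control. Every one of the 18 libraries held Pcna reads, and no group of a line stood apart. Rrm2, the small subunit of ribonucleotide reductase, which makes deoxynucleotides, had 29.4, 42.3 and 19.4 CPM with GSK343, 29.3, 27.2 and 20.7 CPM in the Mettl14 CKO and 37.5, 32.9 and 29.5 CPM in its control. It had 32.4, 48.1 and 39.6 CPM with GSK-J4, 40.7, 42.5 and 39.7 CPM in the Mettl3 CKO and 38.4, 46.1 and 27.2 CPM in its control. All 3 Mettl14 CKO libraries lay below all 3 of their control for Rrm2, with 29.3 CPM in the nearest CKO library and 29.5 CPM in the nearest control. Ccne1, the cyclin of S-phase entry, had 13.9, 7.97 and 9.7 CPM with GSK343, 9.78, 14.6 and 14.6 CPM in the Mettl14 CKO and 11.7, 13.1 and 18.5 CPM in its control. It had 0, 9.89 and 14.2 CPM with GSK-J4, 23.1, 22.6 and 9.29 CPM in the Mettl3 CKO and 11.8, 14.4 and 16.3 CPM in its control. Only GSK-J4 replicate 1 of the 18 libraries had no Ccne1 read. E2f1, the transcription factor at the start of this programme, had 46.4, 37.9 and 49.9 CPM with GSK343, 23.6, 39.3 and 21.5 CPM in the Mettl14 CKO and 21.1, 34.1 and 32.6 CPM in its control. It had 67.4, 11.8 and 35.9 CPM with GSK-J4, 31.8, 20.0 and 32.9 CPM in the Mettl3 CKO and 45.1, 35.5 and 34.6 CPM in its control, the widest range of any group being the one with GSK-J4.

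The remaining roles held to the same division. The 6 spindle checkpoint and anaphase-promoting complex genes had a median of 0.269 CPM per kb, the 8 kinetochore and chromosomal passenger genes 0.204, the 8 spindle and cytokinesis genes 0.189 and the 8 drivers 0.277. Bub1 had no count in 13 of 18 libraries and Nusap1 in 9, the most of any members. Mad2l1, which holds back anaphase until chromosomes attach, was the checkpoint gene counted in most libraries beside Cdc20, at 0 to 14.1 CPM. Among kinetochore genes Cenpa, the histone H3 variant of centromeres, ran from 0 to 6.11 CPM, Cenpf from 0 to 13.6 CPM and Aurkb, the kinase that corrects chromosome attachment, from 0 to 4.51 CPM. Kif20a and Tpx2 were the most abundant spindle genes per kb, at 1.15 and 1.63 CPM per kb, and Anln, a scaffold of the cytokinetic ring, stayed at or under 3.66 CPM. The checkpoint kinase gene Ttk reached at most 6.8 CPM and the cyclin gene Ccna2 at most 8.66 CPM. On the replication side, the 9 helicase and licensing genes had a median of 2.97 CPM per kb, the 4 clamp and nucleotide genes 7.88 and the 3 genes of S-phase entry 5.08. Mcm4 was the most abundant helicase subunit per kb (10.2 CPM per kb, 22.8 to 62.9 CPM), and Mcm6 ran from 7.07 to 37.5 CPM. Cdc6 and Ccne2 were the lowest of the 16, at 0.223 and 0.438 CPM per kb, followed by Mcm5 at 1.02 and Gins2 at 1.27, and all 4 lay inside the range of the mitosis genes.

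**Figure D2:**
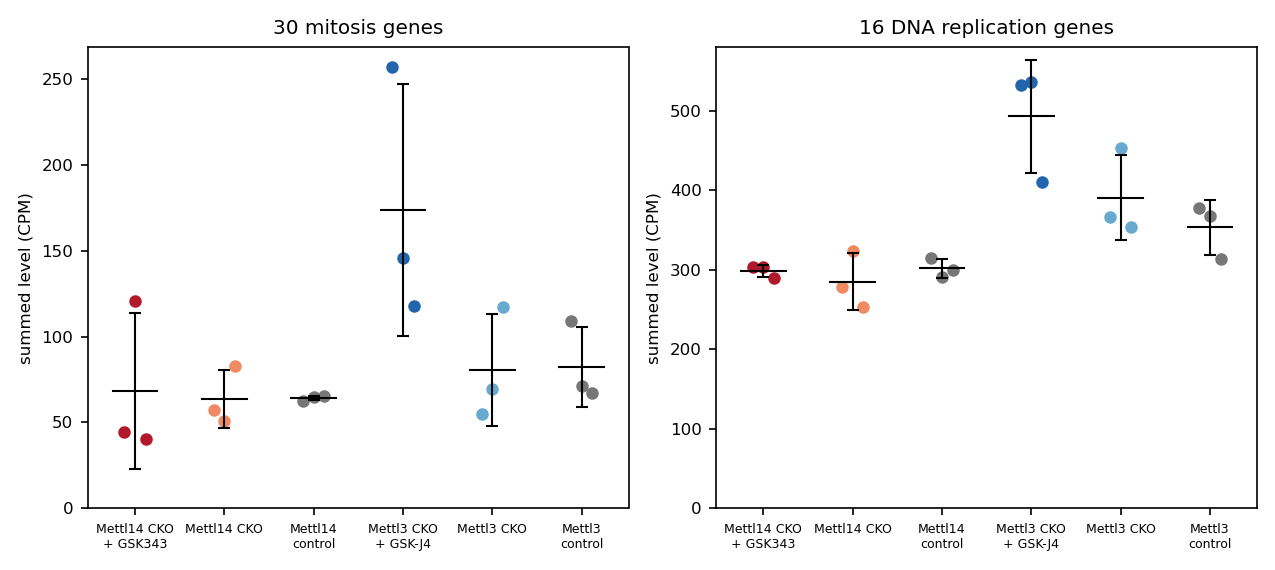
Summed level of the 30 mitosis genes (left) and the 16 DNA replication genes (right) in each library, in CPM, with the mean and SD of the 3 libraries per group. The GSK-J4 group has the highest mean of both sets, and the mitosis sums of the GSK-J4 and GSK343 groups spread most.

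No member passed the test between the libraries labelled Mettl14 CKO and their control. The edgeR quasi-likelihood test with Benjamini-Hochberg adjustment called 0 of the 37 members tested at an adjusted p under 0.05, against 0% of the 13882 genes tested. At an unadjusted p under 0.05 stood 0 members and 1.5% of all genes. With DESeq2 and with limma voom the count was 0 members too. The other 9 members, Ccnb2, Plk1, Bub1, Bub1b, Ttk, Nuf2, Kif11, Nusap1 and Cdc6, had too few counts in this line for the test. The 30 mitosis genes summed to 57.1, 51.0 and 82.8 CPM in the CKO and 62.7, 65.0 and 65.2 CPM in the control, and the 16 replication genes to 279, 324 and 253 CPM in the CKO and 315, 291 and 300 CPM in the control. These sums overlapped. With TMM scaling the median log2 fold change was 0.05 over the members tested and 0.01 over all genes tested, and with plain library size it was -0.03 and -0.09, 19 members being positive and 18 negative under TMM. The median SE of these fold changes was 1.25 for mitosis genes and 0.37 for replication genes, on the log2 scale.

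The members with the smallest p in that comparison were Tyms, Kif23 and Mki67. Tyms, which makes thymidylate, had 32.6, 20.3 and 26.8 CPM in the Mettl14 CKO and 19.2, 20.8 and 17.6 CPM in the control, a log2 fold change of 0.58 ± 0.363 (SE; edgeR adjusted p = 1). Kif23, a motor of the central spindle that cytokinesis needs, had 0.46, 0.43 and 0.767 CPM in the CKO and 0.724, 1.93 and 2.62 CPM in the control (-1.68 ± 1.30), and Mki67, given above, had the largest positive change, 1.60 ± 1.26. Neither gene's groups stood clear of each other. Among members at 3 CPM or more, Cdca8 of the chromosomal passenger complex (0.82 ± 0.913) and the helicase subunit Mcm5 (0.76 ± 0.977) had the next largest positive changes. The largest negative ones were those of the checkpoint protein gene Mad2l1 (-0.64 ± 0.877), the licensing factor gene Cdt1 (-0.44 ± 0.372) and Cdk1 (-0.37 ± 0.675). None of them passed the test, and 2 hung on 1 library: Mcm5 turned to -0.60 and Cdk1 to 0.03 without CKO replicate 3, the library of 1303697 counts. All 3 CKO libraries lay below all 3 controls for 1 tested member, Rrm2, against 7.05% of all genes tested (1.87% in the other direction), and for the untested Ccnb2 and Nuf2, which had no count in the CKO libraries.

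Adding GSK343 to the Mettl14 CKO likewise moved no member past the test. edgeR called 0 of 37 members against the untreated CKO, where 0.0288% of all genes tested were called, and 0 of 37 against the control, where 0.166% were (0.151% higher and 0.0144% lower). The count was 0 by DESeq2 and by limma voom too. An unadjusted p under 0.05 was reached by 0 members in either comparison, and by 5.74% of all genes against the untreated CKO and 4.34% against the control. The 2 comparisons share the GSK343 libraries. The mitosis genes summed to 44.3, 121 and 40.2 CPM with GSK343, 57.1, 51.0 and 82.8 CPM in the untreated CKO and 62.7, 65.0 and 65.2 CPM in the control. The replication genes summed to 303, 303 and 290 CPM with GSK343, 279, 324 and 253 CPM in the untreated CKO and 315, 291 and 300 CPM in the control. Neither sum set the treated libraries apart. The median log2 fold change of the members was 0.18 against the untreated CKO and 0.11 against the control, beside -0.03 and -0.01 over all genes tested.

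E2f1 had the smallest p against the control, with all 3 GSK343 libraries above all 3 controls, a log2 fold change of 0.60 ± 0.319 (edgeR adjusted p = 1), and 0.55 ± 0.325 against the untreated CKO (edgeR adjusted p = 0.923). In that comparison with the control, 4.58% of all genes tested had treated libraries above control libraries without overlap, and 6.82% had them below, as Cdt1 did. Cdca8 had 2.7, 0.797 and 0 CPM with GSK343, 3.45, 6.45 and 6.14 CPM in the untreated CKO and 1.21, 2.53 and 5.83 CPM in the control. Its treated libraries all lay below those of the untreated CKO, with a log2 fold change of -1.92 ± 0.972 (edgeR adjusted p = 0.891), where 3.52% of all genes tested were lower without overlap and 6.39% higher. Tyms had 13.9, 25.7 and 13.9 CPM with GSK343, and its values in the CKO and control are those above (-0.64 ± 0.373 against the untreated CKO). Rrm1, the large subunit of ribonucleotide reductase, had 22.1, 17 and 23.6 CPM with GSK343, 23.5, 30.5 and 16.1 CPM in the untreated CKO and 42.7, 19.7 and 29.3 CPM in the control (-0.57 ± 0.361 against the control). Libraries with and without GSK343 overlapped for both genes.

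At 3 CPM or more, the largest positive changes with GSK343 were those of Cenpe, Cdc20 and Ube2c, and none passed the test. Cenpe, a kinetochore motor, had 0.386, 17.1 and 0 CPM with GSK343, 3.22, 1.29 and 3.84 CPM in the untreated CKO and 1.33, 4.45 and 1.65 CPM in the control. Its log2 fold change of 1.18 ± 1.12 against the untreated CKO became -3.09 without GSK343 replicate 2, and 1.39 ± 1.08 against the control became -2.87. Cdc20, which activates the anaphase-promoting complex, had 0.676, 6.64 and 2.77 CPM with GSK343, 2.76, 0.86 and 0.767 CPM in the untreated CKO and 1.45, 0.481 and 1.17 CPM in the control, or 1.73 ± 1.17 against the control; its 1.03 ± 1.18 against the untreated CKO became -0.28 without GSK343 replicate 2. Ube2c, the ubiquitin-conjugating enzyme of that complex, had 0, 3.72 and 5.54 CPM with GSK343, 1.04, 3.01 and 0 CPM in the untreated CKO and 1.93, 0.12 and 2.04 CPM in the control, and its change stayed positive without any 1 library in both comparisons, as that of Cdc20 did against the control. The negative changes of Top2a (-1.04 ± 0.91) and Mcm3 (-0.69 ± 0.677) against the untreated CKO turned to 0.04 without CKO replicate 3 for Top2a and stayed negative without any 1 library for Mcm3. GSK343 replicate 3, the shallowest library, held 29 reads of all 30 mitosis genes and had no count for 21 of them, where 1 read is worth 1.39 CPM. Nuf2, a kinetochore component, had no count in any GSK343 or Mettl14 CKO library and 0.724, 0.843 and 0.194 CPM in the control.

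No member passed the test between the libraries labelled Mettl3 CKO and their control. edgeR called 0 of the 46 members, all of which had enough counts in this deeper line, against 0% of the 16782 genes tested. At an unadjusted p under 0.05 stood 0 members and 1.88% of all genes, and the count of calls was 0 by DESeq2 and by limma voom. The median log2 fold change was 0.09 over the members and -0.01 over all genes tested. It was -0.05 for the mitosis genes, of which 14 were positive and 16 negative, and 0.25 for the replication genes, of which 11 were positive and 5 negative. The mitosis genes summed to 55.1, 69.4 and 117 CPM in the CKO and 109, 71.0 and 67.2 CPM in the control, and the replication genes to 366, 453 and 354 CPM in the CKO and 378, 368 and 314 CPM in the control. Both sums overlapped.

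Aurka, the kinase of the spindle poles, had 1.26, 4.22 and 3.56 CPM in the Mettl3 CKO and 0.231, 0 and 0.802 CPM in the control. All CKO libraries lay above all controls, as they did for 6.84% of all genes tested, and the log2 fold change was 3.08 ± 1.91 (edgeR adjusted p = 1). Mcm3, another helicase subunit, had 10.2, 46.2 and 12.7 CPM in the CKO and 15.5, 9.36 and 9.1 CPM in the control (1.02 ± 0.666), its CKO mean resting on replicate 2. Cdt1 had 34.8, 36.7 and 23.1 CPM in the CKO and 26.1, 16.5 and 14.7 CPM in the control (0.71 ± 0.469). The next largest positive changes were those of the kinetochore gene Ndc80 (2.24 ± 2.03) and of Kif23 (1.19 ± 1.37), and the largest negative ones those of Cenpe (-0.92 ± 1.52), the helicase component gene Gins2 (-0.66 ± 0.784) and Kif20a (-0.53 ± 1.22), a kinesin of cytokinesis. The 3 members with every CKO library below every control were Cdc20, Birc5 and E2f1, where 6.29% of all genes tested were so. E2f1 gave 31.8, 20.0 and 32.9 CPM in the CKO and 45.1, 35.5 and 34.6 CPM in the control.

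With GSK-J4 the helicase subunit gene Mcm7 rose, the cytokinesis motor gene Kif23 fell with a call that several settings below did not keep, and the other 44 members did not pass the test. edgeR called 1 member higher and 1 lower among 46 against the untreated Mettl3 CKO, where 13% of the 16782 genes tested were called, and the same 2 against the control, where 11.4% were called. By direction, 3.96% of all genes were called higher and 9.07% lower against the untreated CKO, and 3.16% higher and 8.25% lower against the control, beside 1 of the 46 members in each direction. At an unadjusted p under 0.05 stood 5 members in each comparison, beside 28.5% of all genes against the untreated CKO and 27.9% against the control. The 2 comparisons share the GSK-J4 libraries. These libraries also had fewer fibroblast transcripts, fewer mitochondrial reads and more blood and mesoderm marker transcripts, as given above. Of the 10 blood and mesoderm markers, 7 averaged under 1 CPM with GSK-J4, and 0 of the 3 tested were called. Of the 3 neural markers tested, 2 were called lower in both comparisons. The 1 heart muscle marker tested was called higher against the untreated CKO only. All 12 fibroblast markers had negative changes in both comparisons. Of them 11 were called lower against the untreated CKO and 10 against the control, and Fap had no count. The part of these differences in the changes of the members was not tested.

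Mcm7 (ENSMUSG00000029730.16, chromosome 5, 138164583 to 138172422, minus strand, mm10) had 136, 138 and 107 CPM with GSK-J4, 33.5, 52.2 and 28.4 CPM in the untreated CKO and 40.6, 27.7 and 34.0 CPM in the control. Every treated library lay above every other Mettl3 library, on 462, 1144 and 519 reads. The mean was 127 ± 17.4 CPM with GSK-J4, 38.0 ± 12.5 CPM in the untreated CKO and 34.1 ± 6.45 CPM in the control (SD, n = 3 each). The log2 fold change was 1.51 ± 0.301 against the untreated CKO (edgeR adjusted p = 0.00758) and 1.66 ± 0.302 against the control (edgeR adjusted p = 0.00512). It remained called in each of the 16 other settings and library omissions tried in either comparison, between 1.33 and 1.76 against the untreated CKO and between 1.49 and 1.91 against the control, with edgeR, DESeq2 or limma adjusted p up to 0.0487. Its exons share 64 bases with Cops6 and 321 with Ap4m1, both on the other strand, and whether reads were counted by strand is not stated. Cops6 had 186, 124 and 264 CPM with GSK-J4, 100, 133 and 82.0 CPM in the untreated CKO and 111, 176 and 113 CPM in the control, and was not called. Ap4m1 had 32.7, 0 and 0 CPM with GSK-J4, below Mcm7 in each of these libraries.

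The other 5 subunits of the MCM ring, which work with MCM7 in fixed stoichiometry, did not pass the test with GSK-J4. Their log2 fold changes against the untreated CKO were -0.67 ± 0.49 for Mcm2, -0.70 ± 0.666 for Mcm3, -0.21 ± 0.369 for Mcm4, 0.33 ± 1.33 for Mcm5 and -0.05 ± 0.603 for Mcm6. Against the control they ran from -0.38 for Mcm2 to 0.82 for Mcm5. Per kb of exon, Mcm7 stood at 7.48, 3.99 and 5.38 times the mean of the other 5 subunits with GSK-J4, 1.79, 1.48 and 1.25 times in the untreated CKO and 2.11, 1.29 and 1.84 times in the control. In the Mettl14 line this ratio was 1.39, 1.22 and 2.43 with GSK343, 1.82, 1.37 and 0.404 in the CKO and 1.73, 1.29 and 1.76 in the control. Each GSK-J4 library had a higher ratio than any other library. Mcm7 holds CHR, E2F and CCAAT letters in the promoter printed above. E2F letters also stand in the promoters of Mcm3, Mcm5, Mcm6, Cdc6 and Cdt1. Any part of these letters in the change of Mcm7 was not tested.

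**Figure D3:**
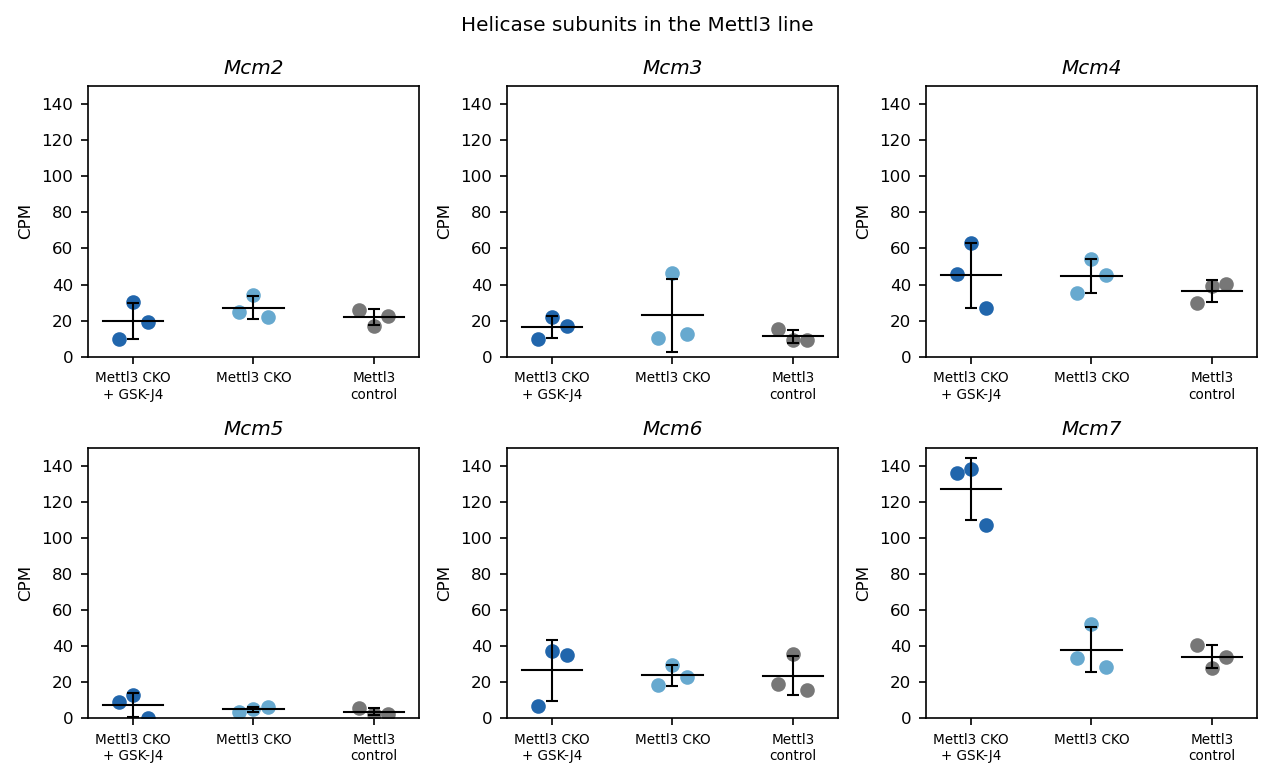
Level in CPM of the 6 helicase subunit genes in the 9 Mettl3 libraries, each point a library, with the mean and SD of 3. Mcm7 lies between 107 and 138 CPM in the GSK-J4 libraries and at or below 52.2 CPM in the others, while the groups of the other 5 subunits overlap.

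Kif23 (ENSMUSG00000032254.10, chromosome 9, 61915905 to 61946774, minus strand, mm10), whose promoter with its CHR match is printed above, had no read in any of the 3 GSK-J4 libraries. It had 2.37, 6.33 and 5.25 CPM in the untreated CKO, on 77, 111 and 152 reads, and 3.79, 1.56 and 0.697 CPM in the control, on 82, 46 and 20 reads. With the floor of 3 counts per library averaged over the group, 0.621 CPM, the level was at least 7.48-fold lower with GSK-J4 than in the untreated CKO (edgeR adjusted p = 0.0271) and at least 3.25-fold lower than in the control (edgeR adjusted p = 0.0462). The call against the untreated CKO was lost without any 1 of the 3 CKO libraries (edgeR adjusted p 0.0834 to 0.107). Against the control it was lost without any 1 control library or GSK-J4 replicate 2 (edgeR adjusted p 0.0632 to 0.154). The call was also lost in both comparisons with limma voom (adjusted p = 0.0726 against the untreated CKO and 0.183 against the control), and with edgeR without the low-count filter (0.057 and 0.11), with a replicate block (0.0845 and 0.132) or with only the 2 groups compared (0.06 and 0.0812). The fibroblast markers summed to 1522, 687 and 791 CPM in these GSK-J4 libraries and the part of that in the change of Kif23 was not tested. In the Mettl14 line Kif23 had 1.74, 1.68 and 0 CPM with GSK343, 0.46, 0.43 and 0.767 CPM in the CKO and 0.724, 1.93 and 2.62 CPM in the control. Ube2c also had no read in any GSK-J4 library, at means of 0.767 CPM in the untreated Mettl3 CKO and 1.46 CPM in its control. Of the 14967 genes that average 1 CPM or more over all libraries, 14172 had a read in some GSK-J4 library. That number was 14688 in the untreated Mettl3 CKO and 14640 in its control.

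The rest of the spindle and cytokinesis genes did not pass the test. Tpx2, which nucleates spindle microtubules, had 93.6, 14.1 and 18.6 CPM with GSK-J4, 7.16, 5.7 and 14.7 CPM in the untreated CKO and 10.5, 5.8 and 11.6 CPM in the control. Its log2 fold change was 1.96 ± 0.762 against the untreated CKO (edgeR adjusted p = 0.117) and 1.93 ± 0.761 against the control (edgeR adjusted p = 0.125), and replicate 1 held 318 of its treated reads. Hmmr, a spindle assembly protein, had 2.36, 8.2 and 7.01 CPM with GSK-J4 and 0.86, 0.285 and 1.69 CPM in the untreated CKO (2.40 ± 1.35). In the control Hmmr reached 4.07 CPM, inside the treated range. Without GSK-J4 replicate 2, edgeR called 4 members against the untreated CKO, Mcm7, Kif23, Tpx2 and Gins2, and without replicate 3 it called Mcm7, Kif23, Rrm1 and Prc1. The share of all genes called after these omissions is not given here. Prc1, which bundles the central spindle where KIF23 works, had reads in GSK-J4 replicate 3 alone among the treated libraries, at 13.6 CPM.

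In the GSK-J4 libraries some mitosis genes appeared in a single library, and not all in the same one. No read was found for 11, 11 and 17 of the 30 in replicates 1, 2 and 3, while others, such as Top2a, had reads in all 3. For 19 of the 30 mitosis genes (63.3%), 1 treated library had no read while another had 5 CPM or more. The same held for 22.8% of the 14967 genes that average 1 CPM or more over all libraries, a set whose levels differ from those of the mitosis genes. With GSK343 it held for 8 mitosis genes (26.7%, against 6.41% of those 14967), and in each of the other 4 groups for at most 1. Replicate 1 alone held reads of Plk1 (78), Bub1 (58), a checkpoint kinase gene, and Kif11 (58), a spindle motor gene, at 17.1 to 23.0 CPM. Replicate 2 alone held reads of Birc5 (140), the survivin of the chromosomal passenger complex, and Nusap1 (127), a spindle microtubule gene, at 16.9 and 15.3 CPM. Replicate 3 alone held reads of Prc1 (66), and had 114 of the reads of the kinetochore gene Ndc80 (23.5 CPM) against 0 and 10 in replicates 1 and 2. The floor of 3 counts in these libraries was 0.362 to 0.883 CPM.

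With GSK-J4 no mitosis gene passed the test with a positive change. Against the untreated CKO the largest positive ones at 3 CPM or more were Bub1 (3.29 ± 2.84), Birc5 (2.85 ± 2.18) and the cyclin gene Ccnb2 (2.57 ± 2.34). Each turned negative without 1 treated library, Bub1 without replicate 1 and Birc5 and Ccnb2 without replicate 2. Against the control they were Nusap1 (6.10 ± 3), Bub1 (3.96 ± 2.92) and Aurka (3.96 ± 1.99), and Aurka alone kept its sign without any 1 library. The 30 mitosis genes summed to 257, 146 and 118 CPM with GSK-J4, 55.1, 69.4 and 117 CPM in the untreated CKO and 109, 71.0 and 67.2 CPM in the control. Every treated sum was above the others of the line, the nearest being 118 CPM with GSK-J4 and 117 CPM in the untreated CKO. Their median log2 fold change was 1.09 against the untreated CKO and 0.80 against the control, with 22 and 19 of 30 positive, and the median over all genes tested was -0.06 and -0.08. The median log2 fold change was smaller in a further list of mitosis genes outside the members, of which 48 were tested. Their medians were 0.226 and 0.0698, with 26 positive and 22 negative in each comparison. The 52 genes of that list summed to 485, 404 and 477 CPM with GSK-J4 and 247, 313 and 287 CPM in the untreated CKO. In the control they summed to 308, 258 and 269 CPM, so the treated sums lay above all others of the line. CPM here take no account of composition: with plain library size in place of TMM factors, the median over all genes was 0.185 against the untreated CKO and 0.177 against the control.

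**Figure D4:**
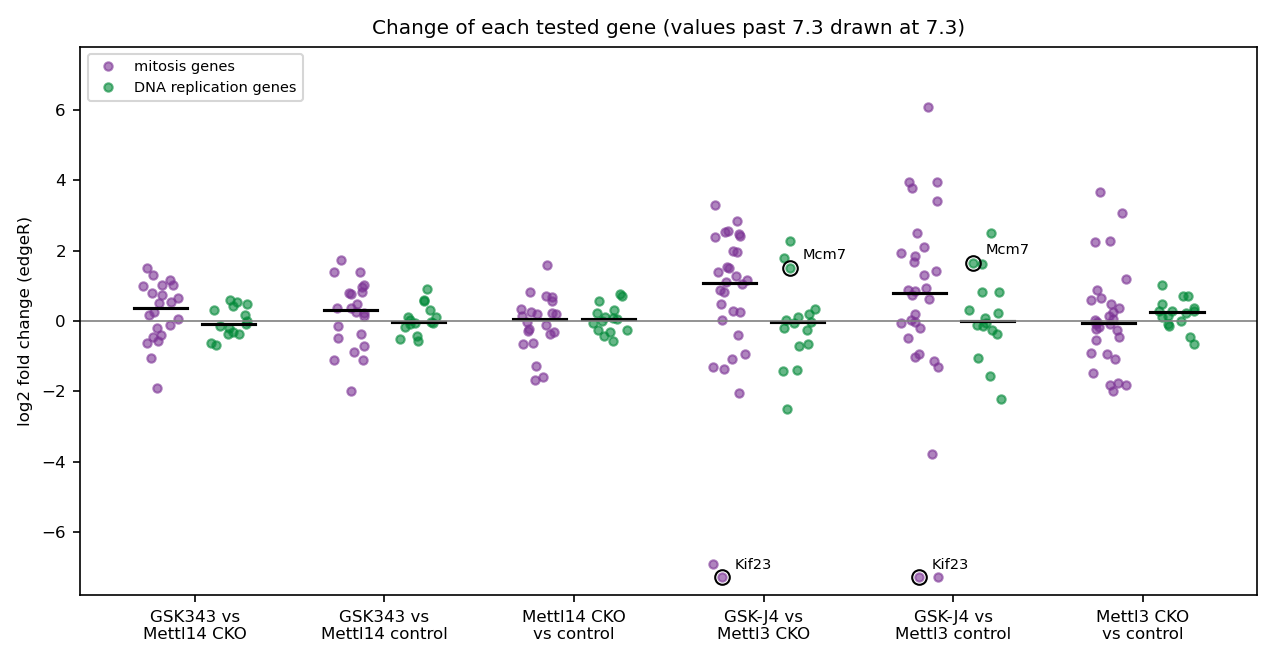
Log2 fold change fitted by edgeR for every member tested, in 6 comparisons, with mitosis genes in purple, DNA replication genes in green and a black line at each median. Circles mark the genes that passed the test, Mcm7 and Kif23 with GSK-J4. Values of genes with no count in a whole group, such as Kif23 and Ube2c with GSK-J4, depend on the fit. Values beyond the drawn range, those of Kif23 with GSK-J4 among them, are drawn at the edge.

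With GSK-J4 the log2 fold changes of the replication genes had a median of -0.04 against the untreated CKO and 0.00267 against the control (0.199 and 0.262 with plain library size), and the genes summed to 533, 536 and 411 CPM with GSK-J4, 366, 453 and 354 CPM in the untreated CKO and 378, 368 and 314 CPM in the control. These sums overlapped between GSK-J4 and the untreated CKO and not between GSK-J4 and the control, and Mcm7 alone made up 107 to 138 CPM of each treated sum. Rrm1 had 21.8, 15.2 and 6.6 CPM with GSK-J4, 31.9, 25.1 and 42.9 CPM in the untreated CKO and 38.4, 40.1 and 29.4 CPM in the control. All treated libraries lay below all others of the line, where 18.4% of all genes tested were lower without overlap against the untreated CKO and 18.9% against the control. The log2 fold change of Rrm1 was -1.42 ± 0.477 against the untreated CKO (edgeR adjusted p = 0.0737) and -1.55 ± 0.479 against the control (edgeR adjusted p = 0.0592), just outside the threshold. DESeq2 called it in both (adjusted p = 0.0238 against the untreated CKO and 0.014 against the control), as did edgeR without GSK-J4 replicate 1 (0.0203 and 0.0162) or replicate 3 (0.0497 and 0.0347). With other single libraries left out, its edgeR adjusted p rose as far as 0.245 against the untreated CKO and 0.182 against the control. Rrm1 was not called in either comparison by limma voom, with a replicate block or with only the 2 groups compared. Its partner Rrm2 had log2 fold changes of -0.25 ± 0.327 against the untreated CKO and -0.14 ± 0.327 against the control. Per kb, Rrm2 stood at 5.91, 12.6 and 23.8 times Rrm1 with GSK-J4, 5.07, 6.71 and 3.68 times in the untreated CKO and 3.96, 4.57 and 3.67 times in the control.

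Gins2 had 40.1, 8.57 and 21.2 CPM with GSK-J4, 6.61, 1.48 and 4.04 CPM in the untreated CKO and 5.88, 8.17 and 4.95 CPM in the control. Every treated library exceeded the others, as was so for 14.7% of all genes tested against the untreated CKO and 14.6% against the control, and the log2 fold change was 2.29 ± 0.819 against the untreated CKO (edgeR adjusted p = 0.092) and 1.62 ± 0.801 against the control (edgeR adjusted p = 0.213). Of its exonic bases 67.3% lie within Gse1 on the other strand, so without the strand setting the reads of the 2 genes cannot be told apart. The same holds for smaller shares of Kif20a (29.3%, with Cdc23), Ube2c (22.8%, with Tnnc2), Ccne2 (17.4%, with Ints8), Ccna2 (12.5%, with Exosc9) and Prc1 (11.1%, with Rccd1), while Kif23 and Rrm1 overlap no annotated gene. Cdc6, the helicase loader, had 7.36, 11.1 and 2.06 CPM with GSK-J4 and 1.6, 2.05 and 1.45 CPM in the untreated CKO (1.79 ± 1.28). In the control Cdc6 had 2.17, 0.237 and 0.697 CPM, its highest library just above the lowest treated one. The cyclin E genes had negative changes that did not pass the test, with -1.41 ± 1.04 for Ccne1 and -2.52 ± 1.76 for Ccne2 against the untreated CKO. Ccne2 had 0, 1.45 and 0 CPM with GSK-J4 and 1.75, 3.88 and 2.11 CPM in the untreated CKO.

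**Figure D5:**
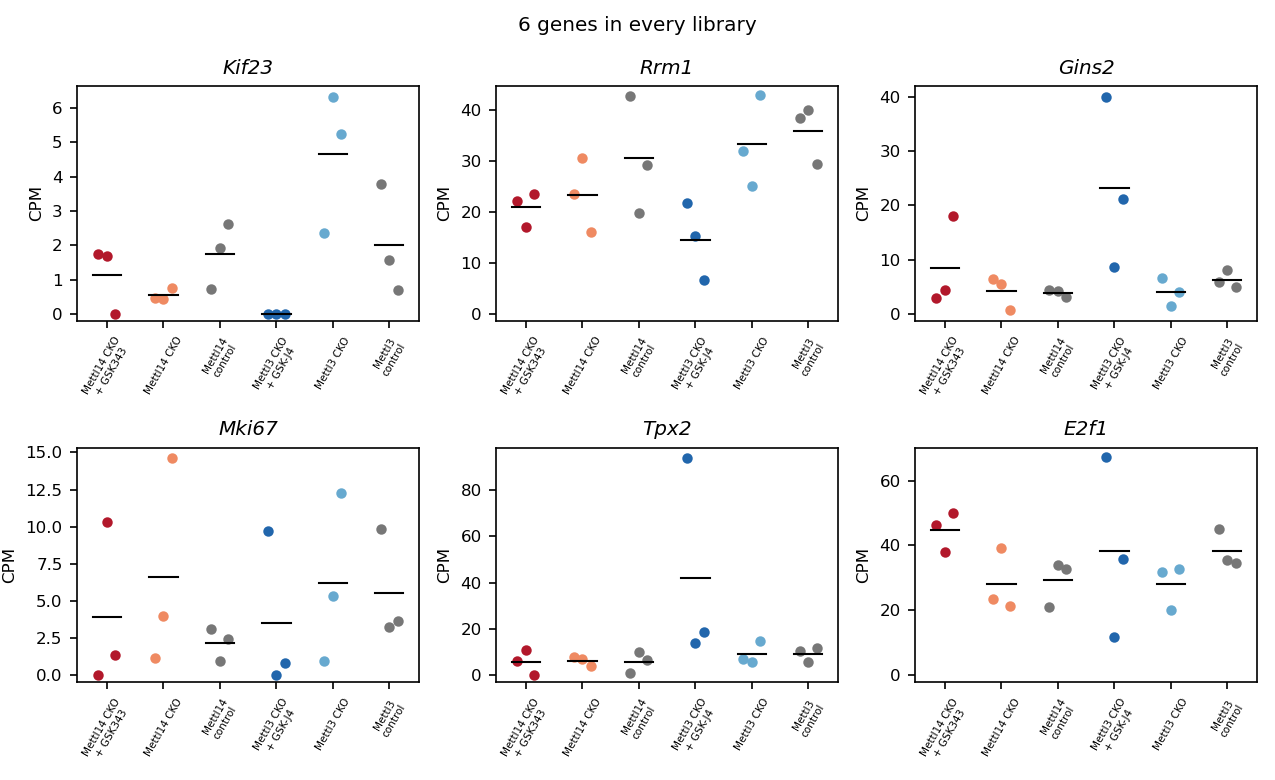
Level in CPM of Kif23, Rrm1, Gins2, Mki67, Tpx2 and E2f1 in each of the 18 libraries, with a line at the group mean. Kif23 is at 0 in the 3 GSK-J4 libraries, Rrm1 lies below and Gins2 above the rest of the Mettl3 line there, and Mki67 overlaps throughout.

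Other genes of the same pathways were read from 3 further lists. Of 48 replication genes outside the members, all tested in the Mettl3 line, edgeR called 2 higher and 0 lower with GSK-J4 in each comparison. Over all genes tested, 3.96% were called higher against the untreated CKO and 3.16% against the control. Usp1 was among those called higher in both. Usp1, which removes ubiquitin from PCNA, had 132, 79.0 and 100 CPM with GSK-J4, 37.8, 49.8 and 32.4 CPM in the untreated CKO and 35.5, 30.4 and 32.7 CPM in the control (edgeR adjusted p = 0.0244 against the untreated CKO and 0.0097 against the control). Its log2 fold change was 1.15 ± 0.289 against the untreated CKO and 1.41 ± 0.29 against the control, and every treated library lay above every other Mettl3 library. The 48 replication genes summed to 970, 930 and 936 CPM with GSK-J4 and 556, 650 and 558 CPM in the untreated CKO. In the control they summed to 593, 563 and 525 CPM, so these treated sums also lay above all others of the line.

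Of 52 mitosis genes outside the members, 48 were tested in the Mettl3 line. edgeR called 0 of them with GSK-J4 against the untreated CKO, beside 13% of all genes. Against the control it called 1 lower, beside 8.25% of all genes. That gene was Ect2, which switches on the cytokinetic ring and is recruited by the KIF23 complex. It had no read with GSK-J4, 1.04, 2.28 and 0.38 CPM in the untreated CKO and 1.8, 2.41 and 5.09 CPM in the control, so it was at least 4.99-fold lower than in the control (edgeR adjusted p = 0.0475) and was not called against the untreated CKO (edgeR adjusted p = 0.0722). Of 14 G1 regulators, edgeR called 0 higher and 2 lower in both comparisons, beside 9.07% of all genes lower against the untreated CKO and 8.25% against the control. Ccnd1, the cyclin D that starts the passage out of G1, had 36.8, 82.4 and 84.3 CPM with GSK-J4, 184, 160 and 179 CPM in the untreated CKO and 161, 146 and 117 CPM in the control, a log2 fold change of -1.58 ± 0.296 against the untreated CKO (edgeR adjusted p = 0.00543) and -1.30 ± 0.294 against the control (edgeR adjusted p = 0.0159). Ccnd2 had 252, 286 and 360 CPM with GSK-J4, 494, 568 and 613 CPM in the untreated CKO and 424, 375 and 444 CPM in the control, or -1.13 ± 0.181 against the untreated CKO (edgeR adjusted p = 0.00221) and -0.71 ± 0.18 against the control (edgeR adjusted p = 0.0261). Of the exonic bases of Ccnd1, 23.4% lie within LTO1 on the other strand. Both D cyclins were lower in each treated library than in each of the others. In the 3 Mettl14 comparisons and between the Mettl3 CKO and its control edgeR called 0 genes of these lists, with at most 3 of a list at an unadjusted p under 0.05.

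The effect of GSK-J4 in the Mettl3 CKO was then tested against that of GSK343 in the Mettl14 CKO, in a fit of all 18 libraries, where the inhibitor and the line cannot be told apart. edgeR called 1 of 44 members, Kif23, whose change with GSK-J4 was lower than its change with GSK343 (adjusted p = 0.00992). Beside it 10.2% of the 16326 genes tested were called, 1.92% higher and 8.3% lower. At an unadjusted p under 0.05 stood 2 members and 24.2% of all genes. Mcm7, which passed the test in its own line, did not differ in its change between the inhibitors past the threshold (1.04 ± 0.503, edgeR adjusted p = 0.211). The same held for Rrm1 (-1.17 ± 0.605, edgeR adjusted p = 0.242). Of the genes outside the members, Ect2, Cenpk, Ccnd1 and Ccnd2 were called lower, and Ccnd1 and Ccnd2 had 205 to 290 and 443 to 452 CPM with GSK343. Bub1b, a checkpoint kinase gene with the next smallest p (0.145 after adjustment by edgeR), had 7.95, 13.1 and 0 CPM under GSK-J4 and 0, 0.177 and 0 CPM under GSK343. Its means in the untreated CKO, from which these changes are taken, were 1.04 CPM in the Mettl3 line and 1.79 CPM in the Mettl14 line. The difference between the 2 CKO effects called 0 of 44 members with edgeR, with DESeq2 and with limma voom, beside 0% of the 16326 genes tested. At an unadjusted p under 0.05 stood 0 members and 2.24% of all genes. The smallest p there was that of Cdt1, at -1.19 ± 0.62. Plain library size moved the median of all genes to -0.128 for the CKO effects, against -0.0295 with TMM, and to 0.0489 for the inhibitor effects, against -0.128.

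The untreated controls of the 2 lines were set side by side last. edgeR called 0 of 44 members between the Mettl14 control and the Mettl3 control, beside 0.913% of all genes tested (0.76% higher and 0.153% lower). The count was 0 by DESeq2 and by limma voom, and 0 members and 5.35% of all genes had an unadjusted p under 0.05. Of the members, 31 had lower and 13 higher fitted levels in the Mettl14 control, with a median log2 fold change of -0.24, beside -0.01 over all genes tested. The mitosis genes summed to 62.7, 65.0 and 65.2 CPM in the Mettl14 control and 109, 71.0 and 67.2 CPM in the Mettl3 control, without overlap. The replication genes summed to 315, 291 and 300 CPM in the Mettl14 control and 378, 368 and 314 CPM in the Mettl3 control, and these overlapped. Mki67 had 3.14, 0.963 and 2.43 CPM in the Mettl14 control and 9.85, 3.22 and 3.63 CPM in the Mettl3 control, with all 3 Mettl14 control libraries below (-1.29 ± 1.51), as they were for Cdc20, Aurkb, Kif20a, Gins2 and E2f1, where 10.6% of all genes tested were so. Aurka was the single member with the opposite order, as 8.05% of all genes had. The smallest p were those of Nuf2 (-2.30 ± 1.75), Mcm6 (-0.66 ± 0.52) and Aurka (2.23 ± 1.76). Line and any difference in handling between the lines cannot be told apart.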

How the data were processed

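RNA was sequenced in 18 libraries of embryoid bodies. The authors deposited raw counts per gene. Per the labels' protocols the RNA was poly(A) selected and prepared with the SMARTer Stranded Total RNA-Seq kit, and the submitters' processing notes name CASAVA, Trimmomatic 0.38, HISAT2 2.1.0, HTSeq and the mm10 genome. Which annotation was used, and whether reads were counted by strand, is not stated. Each file holds 54446 gene identifiers, of which 54409 matched GENCODE M21 and 37 did not. The members and all gene lists were chosen with earlier results of these data known.

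Counts were tested with edgeR 4.0.16 (quasi-likelihood F test, filterByExpr, TMM factors) in R 4.3.3, with the 9 libraries of a line fitted together and all 18 for comparisons between lines. A gene was called at a Benjamini-Hochberg adjusted p under 0.05 over all genes tested. The biological coefficient of variation was 0.394 in the Mettl14 line, 0.843 in the Mettl3 line and 0.664 over all libraries. The script was tested on simulated data. Levels are CPM of the plain library total, errors beside means are SD and errors beside log2 fold changes are SE. Per-library values were given for 10 members of textbook role (Mki67, Top2a, Ccnb1, Cdk1, Plk1, Mcm2, Pcna, Rrm2, Ccne1 and E2f1). In each comparison members were named if called (at most 8), or, where fewer than 3 were called, if among the 3 with the smallest p, and the 3 largest changes in each direction were named at a mean of 3 CPM or more in the higher group. Members named for groups without overlap, for reads in single libraries or for shared exons, with the overlapping genes, were chosen after their values were seen. A gene at 0 in a whole group was given a bound from 3 counts per library, and such bounds and floors cover counting error only. Alternatives were DESeq2 1.42.0, limma 3.58.1 voom with quality weights, other scalings and filters, other sets of libraries, thinned counts, a replicate block and the omission of each library. Of the genes of the other lists that were called, 1 is not reported here.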

Additional observations from a re-analysis of the deposited data

Results flagged for a closer look

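Kif23 differed between the inhibitor effects. In the edgeR fit of all 18 libraries, the change with GSK-J4 in the Mettl3 CKO minus the change with GSK343 in the Mettl14 CKO was fitted at -10.2 (adjusted p = 0.00992). The 3 GSK-J4 libraries held no Kif23 read, so the fitted size is no bound. The levels were 0, 0 and 0 CPM with GSK-J4 and 2.37, 6.33 and 5.25 CPM in the untreated Mettl3 CKO, and 1.74, 1.68 and 0 CPM with GSK343 and 0.46, 0.43 and 0.767 CPM in the untreated Mettl14 CKO. The difference was called without any 1 of the libraries, with an adjusted p between 0.01 and 0.0413, and was not called without the low-count filter (edgeR adjusted p = 0.0531) or by limma voom (adjusted p = 0.0857). The inhibitor and the line cannot be told apart.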

How the results depend on the processing

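With GSK-J4 the share of all genes called is given here for the main fit alone, 13% against the untreated Mettl3 CKO and 11.4% against the control. Counts of members in the other settings thus have no share of all genes beside them. The count of members called with GSK-J4 against the untreated Mettl3 CKO was 2. It was 5 with DESeq2 (with Tpx2, Rrm1 and Gins2), 1 each with no low-count filter, the replicate block, limma voom or only the 2 groups compared, 6 without the 2 shallowest libraries of the fit, and 1 to 4 without any 1 library. Against the control it was 2, then 4 with DESeq2, 1 each with plain library size, the replicate block, limma voom or only the 2 groups, 6 without the 2 shallowest libraries, and 1 to 3 without any 1 library. Leaving out the 2 shallowest left GSK-J4 replicate 2 alone, assumed to vary like the other groups. For the difference of the inhibitor effects the count was 1, then 0 with no filter, limma voom or thinned counts, and 2 without the 2 shallowest. The other 6 comparisons stayed at 0 members called in every setting run. Mcm7 passed in each setting with GSK-J4. Kif23 lost its call against the untreated CKO with no filter (adjusted p = 0.057, edgeR), the block (0.0845), voom (0.0726) or 2 groups (0.06), and against the control with plain library size (0.0509), no filter (0.11), the block (0.132), voom (0.183) or 2 groups (0.0812). Same-numbered replicates deviated together little (r from -0.131 to 0.109), so no pairing by number was seen, which does not exclude one. The block moved no other count of members called.

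Members that did not pass the test and changed sign, in log2 fold change, were these. Between the Mettl14 CKO and its control, Cdk1 was 0.0511 and Mcm5 -0.60 without the 2 shallowest libraries, and they ranged from -1.31 to 0.0281 and from -0.60 to 1.38 without any 1 library. With GSK343 against the untreated CKO, Cenpe was -0.48 with the block and -0.17 with voom, Ube2c -2.80 with voom and -0.19 without the 2 shallowest, Mcm3 0.0917 and Top2a 0.35 without the 2 shallowest. Without any 1 library Cdc20 ranged from -0.28 to 1.96, Cenpe from -3.09 to 1.81 and Top2a from -3.4 to 0.044. Against the control, voom gave -0.79 for Cenpe and -0.68 for Ube2c, and Cenpe ranged from -2.87 to 2.1. With GSK-J4 against the untreated CKO, Bub1 was -2.72 with the block and -6.57 without the 2 shallowest, and without any 1 library Bub1 ranged from -6.42 to 4.95, Birc5 from -6.84 to 4.39 and Ccnb2 from -6.25 to 6.71. Against the control Bub1 was -5.90 without the 2 shallowest, and ranged from -5.75 to 9.41, and Nusap1 from -3.46 to 9.33. Between the controls Tyms was -0.31 with thinned counts and Cdca8 ranged from -0.19 to 0.99. In the difference of the inhibitor effects Ccnb2 ranged from -13.0 to 2.52. The cause was not tested. Of the other values for single members, 1012 kept direction and side of the threshold, 13 gained a call and 18 lost one. A member that failed the filter in a setting has no value there. One read was worth 1.39 CPM in GSK343 replicate 3, the shallowest library, more than the median level of 1.16 CPM of the mitosis genes.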
